A study of Mus musculus with 8 samples.

Results

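The 10 genes described here are markers of satellite glia: Gfap, Fabp7, Kcnj10, Glul, Gja1, Slc1a3, Cdh19, Lgi4, Apoe and Ednrb. They were taken by name from a table of 53801 mouse genes, and all 10 were found and carried enough reads to be tested. Expression was measured by RNA sequencing of mouse lumbar dorsal root ganglia, the ganglia that hold the cell bodies of sensory neurons, in 8 libraries that each pooled L3 to L5 ganglia of 3 mice. In 3 pools of male C57BL/6J mice the left L4 spinal nerve had been tied, and the injured (left) and the contralateral (right) side were sequenced at days 1, 3 and 7. A further pool carried the label no injury and was sequenced as 1 library of each side. The titles of its libraries carry WT, which those of the operated libraries do not. The protocol also names sham surgery, and the labels do not tie that pool to it. Ganglia were not sorted by cell type, so every type in them can contribute RNA. The age of the mice is not stated in the labels. On the injured side only the L4 nerve was tied, so each injured library also holds ganglia whose nerve was left alone. Each day has 1 library a side, so the 3 operated pools stand as the replicates, at different days. The p-values therefore rest on how much these pools vary. In the main comparison the pool labelled no injury was fitted with them. Its left-right difference thus also enters the p-values and the standard errors (SE).

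Satellite glia are flat cells that wrap the cell body of each sensory neuron and so control what surrounds it. They take up potassium and glutamate, turn glutamate into glutamine, are joined to each other by gap junctions, and share much of their gene programme with astrocytes and Schwann cells. After peripheral nerve injury they are known to become reactive, with more of the filament protein GFAP and changed coupling. None of the 10 genes is made by satellite glia alone: Schwann cells use several of them, macrophages make Apoe, and endothelial cells use Ednrb. In bulk RNA fewer cells of a type and less RNA per cell cannot be told apart.

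Total counts lay between 20488115 and 21652688 reads. Atf3, a transcription factor of injured neurons, had 464, 629 and 618 CPM (reads per 1000000 counted reads) in the injured libraries of days 1, 3 and 7, compared with 126, 167 and 110 CPM in the contralateral ones and 10.9 and 11.0 CPM without injury. The pool labelled no injury did not match the sex in the labels: Xist, the RNA of the silenced female X chromosome, stood at 238 and 191 CPM there and at most 0.142 CPM in the operated libraries, and Y-linked Kdm5d had 0 reads there. Any comparison with that pool therefore also compares sexes and pools. Markers of other cell types differed between pools as well. The summed level of 10 macrophage markers was 66.6, 311 and 298 CPM in the injured libraries of days 1, 3 and 7, compared with 61.9, 88.4 and 126 CPM in the contralateral ones and 129 and 103 CPM without injury. The summed level of 8 neutrophil markers was 489 CPM in the contralateral library of day 1 and 21.7 to 262 CPM in the other libraries.

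Scaled for exon length, the members spanned a wide range of levels. Apoe, the apolipoprotein that carries cholesterol between cells, was highest with a mean of 804 RPKM (CPM divided by the exon length in kilobases) over the 8 libraries (647 to 939). Glul, which makes glutamine synthetase, followed with 130 RPKM (95.0 to 190), and Fabp7, the brain-type fatty acid binding protein, with 117 RPKM (75.0 to 169). The ranges of Glul and Fabp7 overlapped. Ednrb (26.2 RPKM), Cdh19 (24.8), Lgi4 (23.1) and Kcnj10 (15.2) formed a middle group, in which each gene's range overlapped that of its neighbour in this order. Gja1 (2.76 RPKM), Gfap (1.74) and Slc1a3 (1.73) were lowest. Gja1 ran from 2.36 to 3.39 RPKM and Slc1a3 from 1.31 to 2.11, while Gfap ran from 0.183 to 4.12 RPKM and overlapped both. The lengths are those of all annotated exons of a gene combined, so isoforms with fewer exons would be understated.

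**Figure D1:**
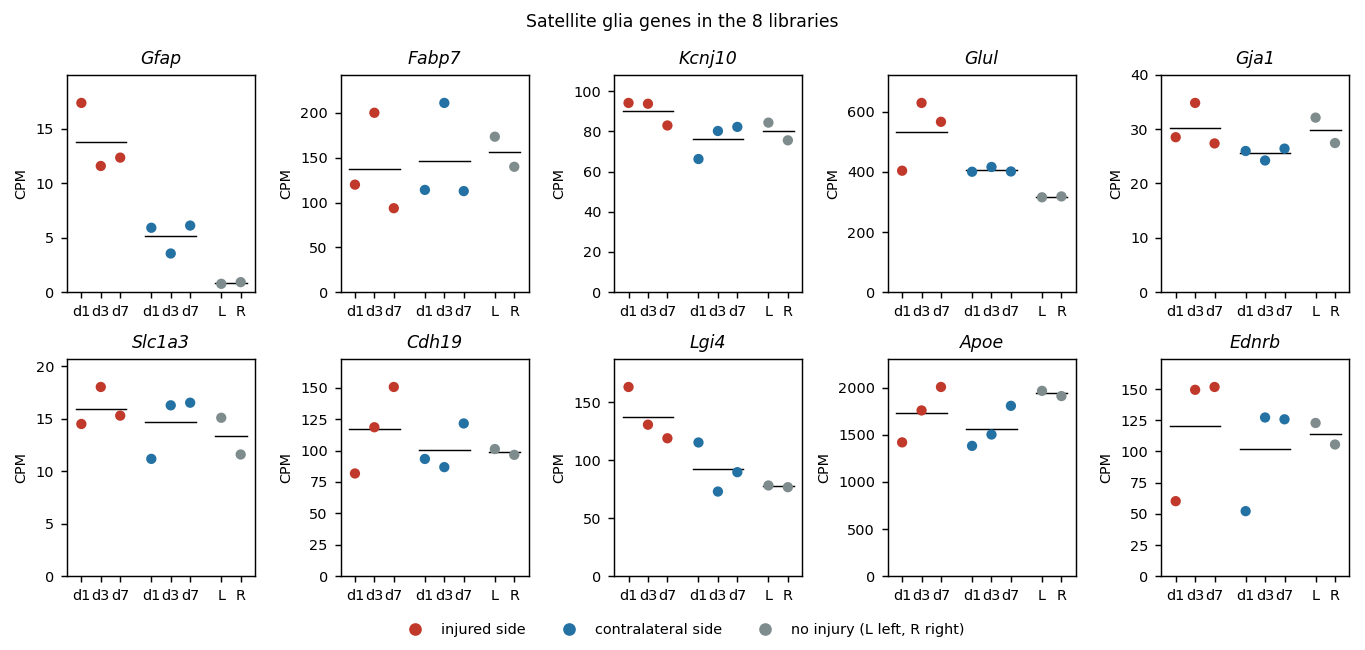
CPM of each of the 10 genes (y axes from 0, own scale per gene) in the 8 libraries: injured side at days 1, 3 and 7, contralateral side at days 1, 3 and 7, and the left and right library labelled no injury. Points are libraries and lines are group means. Gfap shows 3 separate levels, 11.6 to 17.4 CPM injured, 3.55 to 6.12 CPM contralateral and 0.771 to 0.924 CPM without injury, while Ednrb is low on both sides at day 1.

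The main comparison set the ganglia of the tied side against those of the other side within each pool. Of the 10 genes, 4 rose on the injured side, Gfap, Lgi4, Glul and Ednrb, 0 fell, and 6 were not called (edgeR quasi-likelihood test, pool of mice as a block, adjusted p under 0.05 over 16244 genes). Over all genes tested 10.1% were called higher, 8.02% lower and 18.1% in either direction. Without the day 7 or the day 3 pool 2 members were called, and without the day 1 pool 5. With the 3 operated pools only, 2 members were called. The median log2 fold change of the 10 genes was 0.23, against 0.02 over all genes, and 9 of the 10 values were above 0. The injured side was always the left. Left over right without injury, the median log2 ratio of the 10 genes was 0.098, against 0.006 over all genes. Whether a lean to the left plays a part in these values was not tested. The injured side was higher in each of the 3 pools for 7 of the 10 genes, against 28.4% of all genes. The 3 injured libraries lay above all 3 contralateral libraries for 4 genes, Gfap, Lgi4, Kcnj10 and Gja1, against 14.7% of all genes. A side ratio of 1.5-fold or more upward was seen for 1 member at day 1 (Gfap; 5.96% of genes), 2 at day 3 (Gfap and Lgi4; 15.4%) and 1 at day 7 (Gfap; 9.28%), and for 0 between left and right without injury (4.1%). Downward there were 0 members at each day (6.01%, 7.84% and 7.17% of genes) and 0 without injury (2.46%).

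Gfap (ENSMUSG00000020932, chromosome 11, 102887336 to 102900912, minus strand, GRCm38) makes glial fibrillary acidic protein, the intermediate filament of reactive glia. Its level was 17.4, 11.6 and 12.4 CPM in the injured libraries of days 1, 3 and 7, compared with 5.92, 3.55 and 6.12 CPM in the contralateral ones and 0.771 and 0.924 CPM without injury. The 3 groups did not overlap, and the contralateral libraries stood between the other groups. The injured side was 2.66-fold over the contralateral side (log2 fold change 1.41 ± 0.15, SE, 3 pools; edgeR adjusted p = 0.00244). Within pools it was 2.97-fold, 3.12-fold and 2.00-fold higher at days 1, 3 and 7, while left over right without injury had a log2 ratio of -0.25. The call was lost without the replicate block (log2 1.99, adjusted p = 0.0629). Behind these values stood 245 to 356 reads per injured library, 76 to 130 per contralateral library and 16 and 20 without injury. Gfap was thus the member with the highest fold and among the scarcest in the tissue.

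Lgi4 (ENSMUSG00000036560, chromosome 7, 31059342 to 31070935, plus strand) makes a secreted protein that Schwann cells and satellite glia use for myelination and glial proliferation through the receptor Adam22. It had 163, 131 and 119 CPM in the injured libraries of days 1, 3 and 7, compared with 115, 73.1 and 89.8 CPM in the contralateral ones and 78.3 and 76.8 CPM without injury. Every injured library was above every other library. The rise was 1.49-fold (log2 0.58 ± 0.08, SE, 3 pools; adjusted p = 0.00416), with side ratios of 1.45-fold, 1.74-fold and 1.32-fold by day. Lgi4 overlaps Fxyd3 on the opposite strand, and 2059 of its 4584 annotated exon bases are shared. Fxyd3 had 18.6, 17.3 and 11.4 CPM in the injured libraries, compared with 12.6, 8.14 and 9.70 CPM in the contralateral ones (log2 0.63 ± 0.15, SE; adjusted p = 0.0269). Whether strand was used in counting is not stated, so reads of the shared exons cannot be told apart.

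Glul (ENSMUSG00000026473, chromosome 1, 153899944 to 153909723, plus strand) makes glutamine synthetase, which turns glutamate and ammonia into glutamine and is a standard marker of satellite glia. It had 404, 630 and 567 CPM in the injured libraries of days 1, 3 and 7, compared with 401, 417 and 402 CPM in the contralateral ones and 316 and 319 CPM without injury. The sides were level at day 1 (1.03-fold) and apart at day 3 (1.47-fold) and day 7 (1.41-fold). Over the 3 pools the rise was 1.29-fold (log2 0.36 ± 0.10, SE; adjusted p = 0.0442). The call was lost without the day 3 pool (log2 0.27, adjusted p = 0.192), without the day 7 pool (0.29, 0.234) and with the 3 operated pools only (0.36, 0.103), while without the day 1 pool the value was 0.52 (adjusted p = 0.000476).

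Ednrb (ENSMUSG00000022122, chromosome 14, 103814625 to 103844402, minus strand) makes the endothelin B receptor, through which endothelin acts on glia. It had 60.2, 149 and 152 CPM in the injured libraries of days 1, 3 and 7, compared with 52.2, 127 and 126 CPM in the contralateral ones and 123 and 106 CPM without injury. The day 1 pool was low on both sides, 2.52-fold under the highest injured library and 2.44-fold under the highest contralateral one, a wider gap than that between the sides. Within pools the side ratio was 1.18-fold, 1.14-fold and 1.20-fold, and the fitted rise was 1.17-fold (log2 0.23 ± 0.07, SE, 3 pools; adjusted p = 0.0467). In the pool without injury left over right had a log2 ratio of 0.20, close to the 0.24, 0.19 and 0.27 of the operated pools. With side as a further term the value of Ednrb was 0.03 (adjusted p = 0.953), and it was not called by DESeq2 (adjusted p = 0.0559), by limma-voom (0.0501) or with the 3 operated pools only (0.0647). It was also lost without the replicate block (0.789), without the day 7 pool (0.214) and without the day 3 pool (0.108).

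The side term rests on the 1 pool labelled no injury and left 6 genes of the whole table called, with 0 of the 10. With that term Gfap had a log2 value of 1.69 (adjusted p = 0.455), Lgi4 0.56 (0.484) and Glul 0.39 (0.623).

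**Figure D2:**
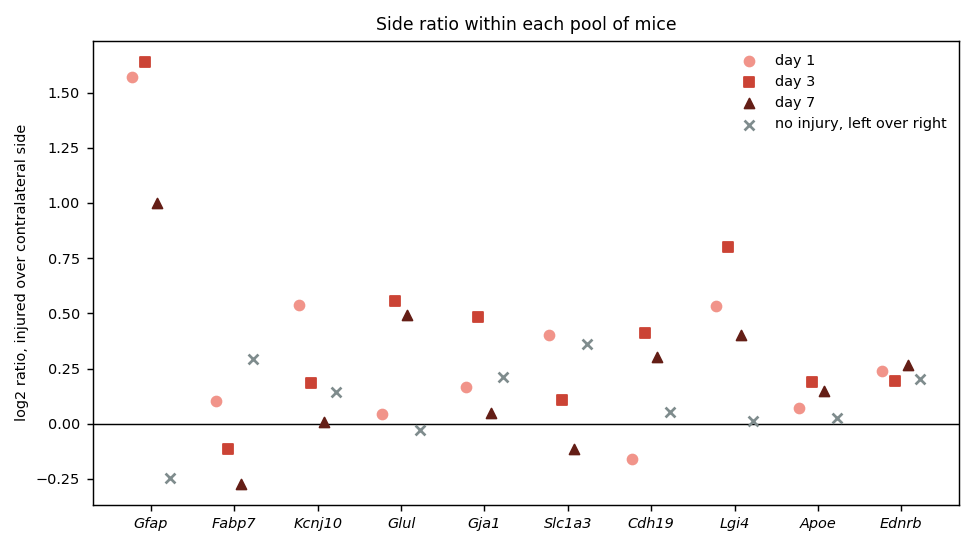
log2 ratio of the injured over the contralateral side within each pool (y axis) for each of the 10 genes (x axis), at days 1, 3 and 7, with the left over right ratio of the pool labelled no injury as a cross. Gfap, Lgi4 and Glul lie above their crosses at all 3 days, whereas the Ednrb ratios of 0.24, 0.19 and 0.27 lie around its cross at 0.20.

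The genes of potassium and glutamate uptake and of cell coupling were not called. Kcnj10 (ENSMUSG00000044708, chromosome 1, 172341210 to 172374085, plus strand) makes Kir4.1, the channel by which satellite glia clear potassium, and its loss is a known feature of injury models in other work. Here it had 94.1, 93.7 and 82.9 CPM in the injured libraries of days 1, 3 and 7, compared with 66.2, 80.1 and 82.2 CPM in the contralateral ones and 84.3 and 75.5 CPM without injury. The lowest Kcnj10 level of all libraries was that of the contralateral side at day 1. The fold over the contralateral side was 1.45, 1.14 and 1.01 at days 1, 3 and 7, with a fitted log2 value of 0.24 ± 0.10 (SE, 3 pools; adjusted p = 0.139).

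Gja1 (ENSMUSG00000050953, chromosome 10, 56377330 to 56402513, plus strand) makes connexin 43, a gap junction protein of satellite glia. It had 28.5, 34.8 and 27.4 CPM in the injured libraries of days 1, 3 and 7, compared with 26.0, 24.2 and 26.4 CPM in the contralateral ones and 32.1 and 27.4 CPM without injury. The day 3 injured library was highest, and the libraries without injury lay within the range of the injured ones. Left over right without injury had a log2 ratio of 0.21, compared with side ratios of 0.16, 0.48 and 0.05 at days 1, 3 and 7. The fitted log2 value was 0.23 ± 0.10 (SE, 3 pools; adjusted p = 0.139).

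Slc1a3 (ENSMUSG00000005360, chromosome 15, 8634124 to 8710764, minus strand) makes the glutamate transporter GLAST. It was scarce, with 14.5, 18.0 and 15.3 CPM in the injured libraries of days 1, 3 and 7, compared with 11.2, 16.3 and 16.5 CPM in the contralateral ones and 15.1 and 11.6 CPM without injury. The groups overlapped, and left over right without injury (log2 0.36) was nearly as large as the highest side ratio, 0.40 at day 1. The fitted log2 value was 0.13 ± 0.13 (SE, 3 pools; adjusted p = 0.532).

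The remaining 3 members varied more between pools than between sides. Fabp7 (ENSMUSG00000019874, chromosome 10, 57784881 to 57788450, plus strand) had 120, 200 and 93.7 CPM in the injured libraries of days 1, 3 and 7, compared with 114, 211 and 113 CPM in the contralateral ones and 174 and 140 CPM without injury. It was high on both sides at day 3, and it was the 1 member with a fitted value below 0 (log2 -0.09 ± 0.10, SE, 3 pools; adjusted p = 0.541). Cdh19 (ENSMUSG00000047216, chromosome 1, 110888326 to 110977584, minus strand), a cadherin of the Schwann cell and satellite glia lineage, had 81.8, 119 and 151 CPM in the injured libraries of days 1, 3 and 7, compared with 93.3, 86.8 and 122 CPM in the contralateral ones and 101 and 96.6 CPM without injury. Cdh19 was lower on the injured side at day 1 and higher at days 3 and 7 (log2 0.19 ± 0.11, SE; adjusted p = 0.260), and without the day 1 pool its value was 0.35 (adjusted p = 0.00247). Apoe (ENSMUSG00000002985, chromosome 7, 19696109 to 19699188, minus strand) had 1420, 1758 and 2007 CPM in the injured libraries of days 1, 3 and 7, compared with 1383, 1503 and 1807 CPM in the contralateral ones and 1966 and 1911 CPM without injury. Its side ratios were 1.05-fold, 1.14-fold and 1.11-fold (log2 0.13 ± 0.07, SE; adjusted p = 0.238), and its level was highest at day 7 on each operated side.

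Whether the side difference changed with the day was asked with a term for the log2 of the day. It was called for 0 of the 10 genes and for 0% of all genes by edgeR (49 genes by DESeq2). At an unadjusted p under 0.05 there were 3 members and 1299 of 16244 genes. The 3 members were Kcnj10, whose side difference fell by 0.19 on the log2 scale per doubling of days (SE 0.05, adjusted p = 0.380), Glul, at 0.17 ± 0.06 (0.603), and Cdh19, at 0.17 ± 0.06 (0.584). With 1 library a side and day these differences have no replicate check.

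The contralateral side was then set against the pool labelled no injury, entered as 1 sample. None of the 10 genes was called by edgeR, where 0.281% of 16747 genes were, with 2 members and 1480 genes at an unadjusted p under 0.05. The 2 were Gfap and Glul. Gfap averaged 5.20 ± 1.43 CPM on the contralateral side (SD, n = 3) and 0.847 CPM over the libraries without injury, a fitted 6.12-fold difference (log2 2.61 ± 0.39, SE; edgeR adjusted p = 0.0633, DESeq2 2.93e-05). Glul averaged 406 ± 8.91 CPM on the contralateral side (SD, n = 3) and 317 CPM over the libraries without injury (log2 0.37 ± 0.08, SE; edgeR adjusted p = 0.182, DESeq2 0.00125). With 1 contralateral library left out the edgeR adjusted p of Gfap was 0.145 without day 7, 0.150 without day 3 and 3.27e-11 without day 1, and that of Glul was 0.248, 0.613 and 0.0115. These fits have 1 residual degree of freedom and a lone sample without injury. All 3 contralateral libraries lay above both libraries without injury for Gfap and Glul, as they did for 17.8% of genes. They lay below both for Gja1 and Apoe, as for 19.4% of genes. Over the mean without injury the injured side stood 16.3-fold higher for Gfap, 1.77-fold for Lgi4 and 1.68-fold for Glul. Surgery, sex and pool cannot be told apart in these values. Atf3, too, was higher in all 3 contralateral libraries than in those without injury. Whether the contralateral side is an unaffected baseline was not tested.

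Among the 45 pairs of members, log2 CPM over the 8 libraries gave a median Pearson r of 0.31, given only as a description since libraries share pools. The closest pairs were Gfap with Lgi4 (r = 0.85), Gfap with Glul (0.79), Apoe with Ednrb (0.75) and Kcnj10 with Slc1a3 (0.75). Cdh19, Apoe and Ednrb correlated with each other by 0.64 to 0.75, while Gfap had -0.42 with Apoe, -0.16 with Ednrb and 0.25 with Cdh19.

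Of 14632 other protein-coding genes, the 5 whose log2 CPM followed that of Gfap most closely were Mt2, Mt1, Crym, Tm2d2 and Paf1, each with r = 0.98 over 8 libraries. Mt2, a metallothionein that binds zinc and copper, had 93.0, 83.3 and 64.6 CPM in the injured libraries of days 1, 3 and 7, compared with 55.3, 35.4 and 51.5 CPM in the contralateral ones and 10.2 and 8.82 CPM without injury. It rose on the injured side by 0.77 ± 0.16 (log2, SE; adjusted p = 0.0280), and like Gfap it was lowest without injury. Mt1 and Crym were also called, while Tm2d2 and Paf1 were not. Over the 8 libraries Tm2d2 ran only from 41.2 to 46.4 CPM and Paf1 from 32.7 to 43.8 CPM, against 0.771 to 17.4 CPM for Gfap. A high r therefore does not mean a change of like size. For Kcnj10 the 5 closest genes were Zfp78 (r = 0.97), Chst3, Tacr2, 4931428F04Rik and Rpl19, 0 of them called, and Tacr2 and Rpl19 were listed at under 1 CPM in every library.

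Of 20 further satellite glia genes, all tested, 7 rose, 0 fell and 13 were not called, with a median log2 of 0.15. Among all genes tested 10.1% were called higher and 8.02% lower, with a median log2 of 0.02. Gpr37l1, an orphan receptor of glia, had 88.4, 91.3 and 82.9 CPM in the injured libraries of days 1, 3 and 7, compared with 62.4, 62.8 and 66.9 CPM in the contralateral ones and 68.1 and 63.9 CPM without injury (log2 0.45 ± 0.06, SE; adjusted p = 0.00515). Entpd2, an enzyme that splits extracellular ATP, rose by 0.42 ± 0.07, Sox10, the transcription factor of peripheral glia, by 0.37 ± 0.08, and Erbb3, the neuregulin receptor, by 0.31 ± 0.07. Sox10 and Erbb3 are equally Schwann cell genes. Of the 20 values 14 were above 0 and 6 below. Those below 0, all uncalled, included S100b, which makes a calcium-binding protein of glia, at -0.28 ± 0.09 (adjusted p = 0.0586), and Bcan, which makes the matrix protein brevican, at -0.30 ± 0.09 (0.0661), each lower on the injured side in 3 of 3 pools, and Aldoc, a glycolytic enzyme gene, at -0.37 ± 0.13 (0.100). The summed level of these 20 genes was 3502 to 3676 CPM on the injured side, 3254 to 3691 CPM on the contralateral side and 3348 and 3383 CPM without injury.

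**Figure D3:**
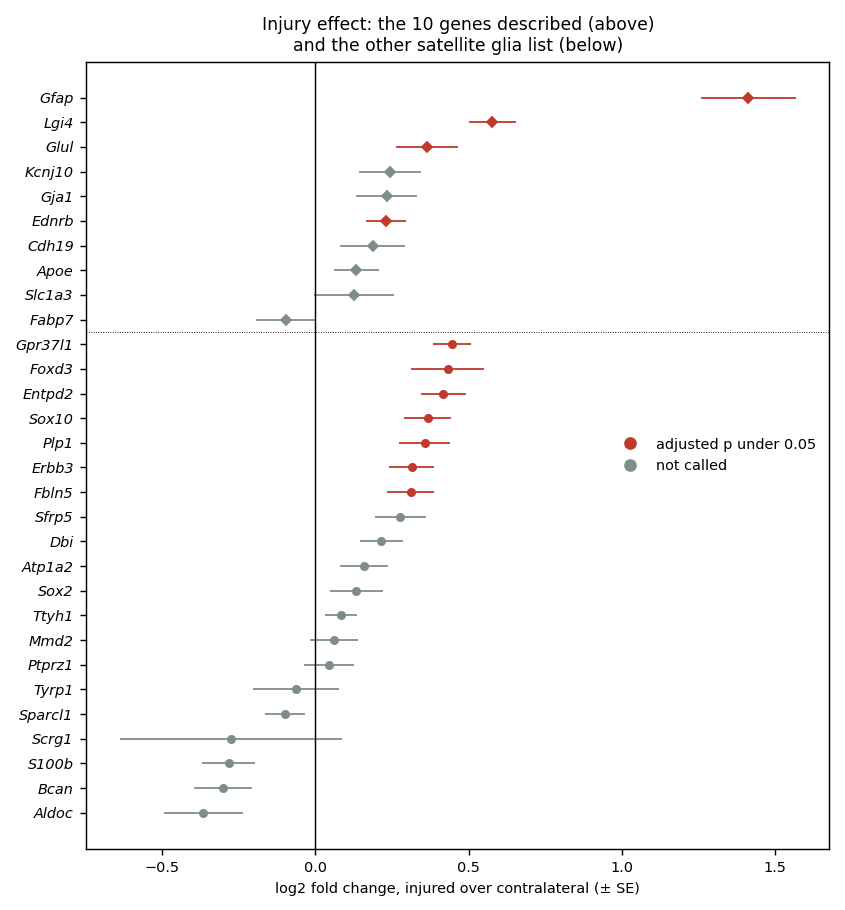
Fitted log2 fold change of the injured over the contralateral side (x axis, bars are SE) for the 10 genes described, above the dotted line, and 20 further satellite glia genes below it. Red marks adjusted p under 0.05: 4 of the 10 and 7 of the 20, all to the right of 0 (10.1% of all genes tested were called higher).

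Partners of the members were examined by function. In the filament list Vim, which makes vimentin, rose by 0.74 ± 0.09 (log2, SE; adjusted p = 0.0033) and had 771, 1057 and 824 CPM in the injured libraries of days 1, 3 and 7, compared with 502, 518 and 552 CPM in the contralateral ones and 421 and 425 CPM without injury. Vimentin is also made by fibroblasts, macrophages and endothelium. Synm, which makes synemin, fell by 0.32 on the log2 scale (SE 0.08), and Nes (0.94 ± 0.39) and Ina (0.14 ± 0.08) were not called, so 1 of 6 rose and 1 fell. Of 11 further gap junction and pannexin genes 1 rose, Gjb2 (0.61 ± 0.17, with 3.74 CPM injured, 2.44 CPM contralateral and 3.96 CPM without injury on average), and 2 fell, neuronal connexin 36 (Gjd2, -1.12 ± 0.23) and Panx2 (-0.38 ± 0.09). Gjc1 (0.59 ± 0.20) was not called.

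Of 11 glutamate and glutamine genes 10 were tested. Slc38a1, a glutamine carrier, rose by 0.37 ± 0.06 and Slc1a4, a carrier of neutral amino acids, by 0.76 ± 0.12, while Gls2, a glutaminase that turns glutamine back into glutamate, fell by 0.43 on the log2 scale (SE 0.10). Slc1a1 had -0.28 ± 0.11 and was not called. Of 11 potassium clearance genes 0 rose and 2 fell, Kcnj3 and Kcnj12, by 0.56 (SE 0.09) and 0.32 (SE 0.08) on the log2 scale. Kcnj3 is a neuronal channel. The sodium pump subunits Atp1b2 (0.47 ± 0.15) and Atp1b1 (-0.25 ± 0.09) were not called.

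Around Ednrb none of 6 endothelin genes was called (edgeR), with 2, Ece1 and Edn1, at an unadjusted p under 0.05. Ece1, which cuts endothelins to their active form, had 0.19 ± 0.06 (log2, SE). The ligand genes were scarce: Edn1 averaged 2.23 ± 0.873 CPM on the injured side and 1.24 ± 0.368 CPM on the contralateral side, while Edn2 averaged 0.285 ± 0.188 CPM injured and 0.485 ± 0.258 CPM contralateral (SD, n = 3 each). Edn3 averaged 1.02 ± 0.370 CPM injured and 0.986 ± 0.339 CPM contralateral. The endothelin A receptor gene Ednra had -0.28 ± 0.16 and Ece2 0.02 ± 0.16.

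Of 6 relatives and receptors of Lgi4, 0 rose and 3 fell. Lgi3 had 147, 87.1 and 81.9 CPM in the injured libraries of days 1, 3 and 7, compared with 182, 160 and 173 CPM in the contralateral ones and 179 and 182 CPM without injury (log2 -0.76 ± 0.15, SE; adjusted p = 0.0245). Lgi2 fell by 0.49 on the log2 scale (SE 0.11) and the receptor gene Adam23 by 0.26 (SE 0.07). Adam22 (-0.25 ± 0.08), Adam11 (-0.50 ± 0.15) and Lgi1 (-0.20 ± 0.11) were not called. These genes are known mainly from neurons. Of 10 neuron markers 0 rose and 4 fell, among them Isl1 and Snap25 by 0.40 and 0.46 on the log2 scale, and 2 had values above 0. Whether the amount of neuronal RNA plays a part in the values of the Lgi4 relatives was not tested.

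Around Apoe and Fabp7, 5 of 12 lipid transport genes rose and 1 fell. Plin2, which coats lipid droplets, had 73.9, 186 and 195 CPM in the injured libraries of days 1, 3 and 7, compared with 49.8, 70.8 and 62.9 CPM in the contralateral ones and 41.8 and 41.1 CPM without injury (log2 1.20 ± 0.20, SE; adjusted p = 0.0195). The myelin fatty acid binding protein gene Pmp2 rose by 1.43 ± 0.34 (log2, SE) and had at most 3.50 CPM in any library, while the cholesterol exporter gene Abcg1 fell by 0.48 on the log2 scale (SE 0.07). Of 7 further cadherins 0 rose and 2 fell, Cdh10 by 0.73 and Cdh11 by 0.38 on the log2 scale. Cdh2 (0.23 ± 0.07) and Cdh7 (-0.94 ± 0.28) were not called.

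Markers of other cells were read beside the members. Over all genes tested 10.1% were called higher and 8.02% lower. Summed over the 10 members, the level was 2404, 3145 and 3227 CPM in the injured libraries of days 1, 3 and 7, compared with 2268, 2542 and 2790 CPM in the contralateral ones and 2890 and 2764 CPM without injury, and Apoe made up most of it. None of 10 myelinating Schwann markers was called (edgeR, with 2, Egr2 and Mag, at an unadjusted p under 0.05), but all 10 had values above 0. Their sum was 4296 to 7778 CPM on the injured side and 4200 to 7231 CPM on the contralateral side, with its lowest values at day 1. Without injury it was 5289 CPM in the left and 7298 CPM in the right library, so the sides differed there as well. Of 10 macrophage markers 2 rose, Cd163 (0.98 ± 0.13) and Aif1 (0.99 ± 0.23), of 8 fibroblast markers 3, Lum, Col3a1 and Dcn, and of 8 endothelial markers 1, Kdr. All 10 macrophage, all 8 fibroblast and all 8 endothelial values were above 0, with median log2 values of 1.08, 1.00 and 0.39. The fibroblast sum was 1657 to 3153 CPM on the injured side, 1399 to 2006 CPM on the contralateral side and 2145 and 2279 CPM without injury. Of 10 non-myelinating and repair Schwann markers, 9 tested, 3 rose, Ncam1, Gdnf and Shh, and 1 fell, Cadm2. Their part in the values of Apoe, Ednrb, Cdh19 and Glul was not tested.

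Of 7 astrocyte markers, 6 tested, 2 rose. Sox9, a glial transcription factor, had 2.98, 6.20 and 6.96 CPM in the injured libraries of days 1, 3 and 7, compared with 1.36, 1.68 and 2.45 CPM in the contralateral ones and 1.74 and 1.89 CPM without injury (log2 1.51 ± 0.19, SE; adjusted p = 0.0038). Aldh1l1, a folate enzyme, rose by 0.74 ± 0.18. Aqp4, the water channel that defines astrocytes, had 7.80 to 17.4 CPM on the injured side, 12.2 to 17.1 CPM on the contralateral side and 11.9 and 13.4 CPM without injury. Of 6 oligodendrocyte markers 5 were under 1 CPM on average, among them Opalin at 0 to 0.141 CPM. The summed level of the 6 was 6.54, 2.70 and 9.33 CPM in the injured libraries of days 1, 3 and 7. It was 4.32, 1.68 and 15.7 CPM in the contralateral ones and 1.54 and 2.59 CPM without injury. None of 12 cell cycle genes was called (edgeR, with 1, Pcna, at an unadjusted p under 0.05), but the sides differed in opposite directions by pool. Their summed level was 33.0, 97.5 and 68.4 CPM in the injured libraries of days 1, 3 and 7, compared with 86.8, 36.7 and 46.5 CPM in the contralateral ones and 48.9 and 37.6 CPM without injury. The median log2 side ratio was -2.44 at day 1, 1.71 at day 3 and 0.60 at day 7, and the contralateral library of day 1 was the highest on its side, as for the neutrophil markers. None of 8 neutrophil markers was called either, with 0 at an unadjusted p under 0.05.

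**Figure D4:**
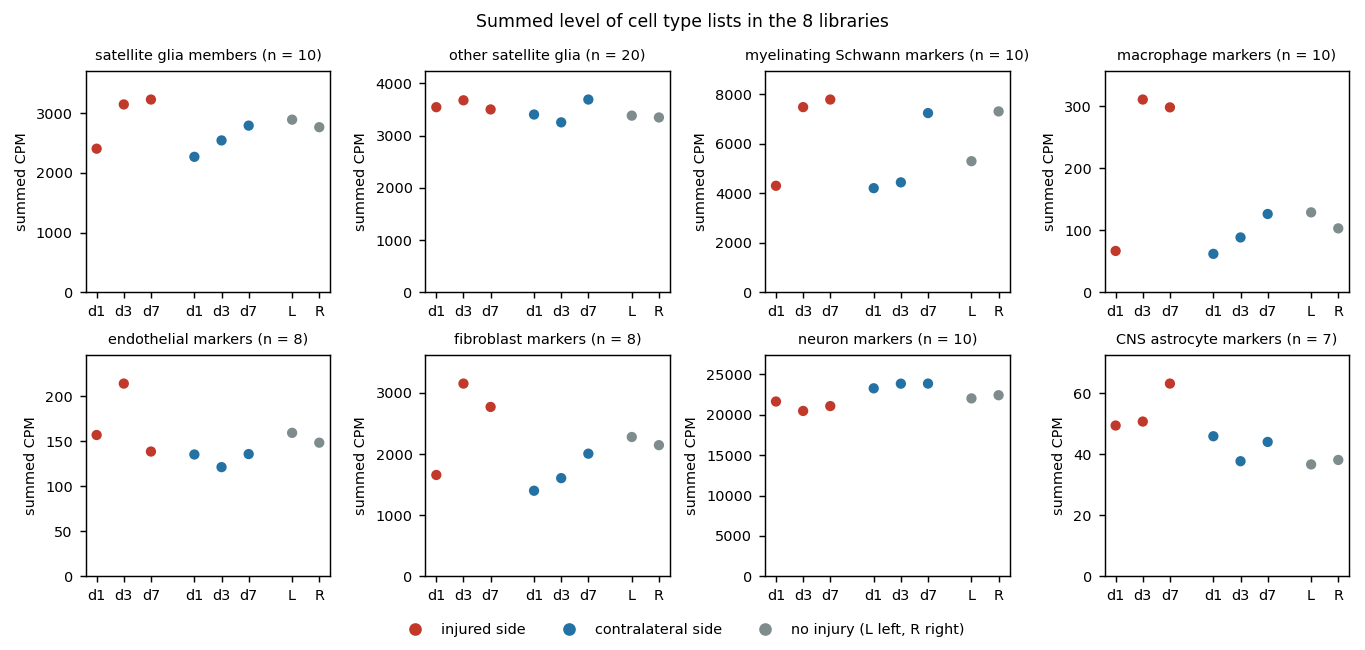
Summed CPM (y axes from 0) of the 10 genes described, of 20 further satellite glia genes and of marker lists for other cell types, in the 8 libraries ordered as injured, contralateral and no injury. The 10 genes sum to 2404 to 3227 CPM on the injured side and 2268 to 2790 CPM on the contralateral side, and the macrophage, fibroblast and myelinating Schwann sums are lowest at day 1 on each operated side.

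The upstream sequence of the members was read for letters bound by factors of glial reactivity and identity. RefSeq (GRCm38.p6) gave windows of 250 bases before the transcript start for 8 of the 10 genes, with 3 windows for Apoe. Cdh19 and Lgi4 had none and were not searched. The motifs searched on both strands were TTCNNNGAA (STAT), TGANTCA (AP-1), ACAAAG (SOX) and the glucocorticoid response element, found in 7.02%, 6.75%, 16.5% and 0.387% of 32851 such windows of all genes. No match to the 4 motifs lay in the windows of Gfap, Glul, Ednrb, Fabp7 and Kcnj10. The windows of Gfap and Ednrb lie inside the annotated genes, so sequence before the outermost annotated start of each was not searched. The Fabp7 window lies partly inside its gene, and all Apoe windows but the first lie inside theirs. Slc1a3 held 1 STAT match, Gja1 1 AP-1 match 19 to 13 bases before the start, and the first window of Apoe 1 SOX match. The windows of Gfap, the member with the highest fold, and of Slc1a3 and Gja1, which were not called, are shown 5′ to 3′, with matches in capitals. Gfap lies at chr11:102897201-102897450 (minus strand), Slc1a3 at chr15:8710808-8711057 (minus strand) and Gja1 at chr10:56377050-56377299 (plus strand).
Gfap: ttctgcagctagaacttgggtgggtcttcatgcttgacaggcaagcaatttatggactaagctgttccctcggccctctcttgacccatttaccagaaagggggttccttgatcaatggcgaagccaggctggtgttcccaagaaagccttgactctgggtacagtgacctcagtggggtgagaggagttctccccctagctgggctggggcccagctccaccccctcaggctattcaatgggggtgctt
Slc1a3: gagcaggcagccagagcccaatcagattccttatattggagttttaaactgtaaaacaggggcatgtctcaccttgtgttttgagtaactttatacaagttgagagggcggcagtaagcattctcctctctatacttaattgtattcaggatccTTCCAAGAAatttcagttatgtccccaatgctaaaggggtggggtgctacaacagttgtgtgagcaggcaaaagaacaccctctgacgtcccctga
Gja1: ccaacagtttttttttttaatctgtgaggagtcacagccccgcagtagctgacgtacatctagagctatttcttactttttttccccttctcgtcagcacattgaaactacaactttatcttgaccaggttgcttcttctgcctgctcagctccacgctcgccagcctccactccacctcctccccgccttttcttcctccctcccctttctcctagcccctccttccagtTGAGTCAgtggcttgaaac
The 9 capitals in Slc1a3 lie 96 to 88 bases before the start. A match is a description of the letters and not a binding site, and a window without one says nothing about sequence farther away.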

How the data were processed

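Each of the 8 RNA libraries came from the ganglia of 3 mice, per the labels' protocols. The deposited table holds raw read counts per gene made by the authors. Per the submitters' processing notes, the tools were STAR 2.5.4a, cutadapt 1.16, DESeq2 and featureCounts 1.6.3, on build GRCm38. The strand setting and annotation release remain not given in the sources used here. GENCODE release M21 named 53706 of the 53801 gene IDs and gave positions and exon lengths.

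Counts were used as deposited and shown as CPM of the library total. A count of 0 allows up to 3 reads, 0.139 to 0.146 CPM, a limit for counting error alone, since counted reads need not be independent molecules. The main test was edgeR's robust quasi-likelihood test (edgeR 4.0.16, R 4.3.3; TMM, filterByExpr with minimum count 10, Benjamini-Hochberg at 0.05 over all genes tested), with pool as the block over 8 libraries (3 residual degrees of freedom), a term for day (2) or 3 contralateral libraries against the summed libraries without injury (2). Side ratios used TMM-scaled log2 CPM with a prior count of 2 and have no test. Alternatives were other scalings, no filter, DESeq2 1.42.0, limma-voom (limma 3.58.1), other designs and leaving out each pool. The block follows the series' design, in which both sides come from the same mice. Over 16244 genes, the correlation of the 2 sides' deviations was 0.249 for the day 1 pool, -0.0618 for day 3 and 0.356 for day 7.

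The members and the 22 gene lists were chosen with earlier results of these data known. The 10 members are always named, as are all endothelin and Lgi partner genes, up to 4 genes of lowest p per other list, and the 5 genes most like Gfap and Kcnj10. A gene that this rule names in the lipid transport list is not reported here. Fxyd3, Pcna, Opalin, S100b, Bcan and Aldoc were added after their values were seen. On simulated counts with planted changes the injury test, on 16279 genes, recovered 72% of 1.5-fold and 100% of 2-fold changes, with 5 of 191 calls on genes without a planted change. The contralateral test recovered 38% of 1.5-fold and 90% of 2-fold changes. The simulation gave every gene the same spread beyond counting error and no differences between pools. Changes were planted only in genes with many reads. These shares therefore do not measure recovery in the real data.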

Additional observations from a re-analysis of the deposited data

How the results depend on the processing

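The calls of Gfap and Lgi4 for the injury effect held when each operated pool was left out, in all 3 scalings and without a filter. They also held by DESeq2 and limma-voom, with the 3 operated pools only and against the libraries without injury alone. That last fit had no block and entered the left and right libraries of 1 pool as 2 samples, and it also compares sexes. Both calls were lost with side as a further term. Without the replicate block Gfap (log2 1.99, adjusted p = 0.0629) and Ednrb (0.16, 0.789) were lost. Genes called for the injury effect, 2946 in the main test, numbered 6 with side as a further term, 1145 against the libraries labelled no injury alone, 1212 with the 3 operated pools only and 631 to 4669 with an operated pool left out (631 without day 7, 985 without day 3, 4669 without day 1). Of the 10 members 4 were called, against 2 without the replicate block, 0 with side as a further term, 2 against the libraries without injury alone, 2 with the 3 operated pools only and 2 to 5 with an operated pool left out. Against the libraries without injury alone Glul had 0.75 (adjusted p = 0.063) and Ednrb 0.08 (0.915), and scaling by total counts left Glul at adjusted p = 0.0603. The replicate block changed no other member's call.

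The trend with day, 0 genes in the main test, gave 9 genes with DESeq2 size factors, 32 without a filter and 49 by DESeq2. The contralateral comparison, 47 genes and 0 members, gave 698 genes and 3 members without a filter, 162 and 2 by DESeq2, 98 genes by limma-voom, 372 and 2 with the libraries without injury entered singly, and 16 to 954 genes and 0 to 2 members with a contralateral library left out (16 without day 3, 954 without day 1), where 1 residual degree of freedom remains and the lone sample without injury is assumed to vary like the others.

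Values that changed sign were all uncalled. For the injury effect Slc1a3 had -0.24 with side as a further term and ran from -0.0060 (without day 1) to 0.25 (without day 7), and Apoe had -0.16 against the libraries without injury alone. For the contralateral comparison Fabp7 ran from -0.46 to 0.068 and Cdh19 from -0.13 to 0.12 over the libraries left out, Kcnj10 from -0.12 to 0.034 and Ednrb from -0.36 to 0.16. Side ratios of 1.5-fold or more numbered 4 of 30 in the main setting, 4 with a prior count of 0.5 and 5 by total counts. The causes of these differences were not tested. Gfap, with 16 and 20 reads in the libraries without injury, is the member whose depth limits its ratio most.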

Other observations

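In the pool labelled no injury, myelinating Schwann markers summed to 5289 CPM in the left and 7298 CPM in the right library, although no nerve was tied. Neutrophil markers summed to 262 and 70.9 CPM in the same libraries. Edn3, a ligand of the endothelin B receptor, stood at 4.15 and 2.68 CPM there and at 0.610 to 1.37 CPM in the 6 operated libraries (log2 -1.77 for the contralateral side against no injury, edgeR adjusted p = 0.182, not called).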
